A study of Mus musculus with 3 samples.

Results

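Dermal fibroblasts with a constitutively active Fgfr3 were compared with dermal fibroblasts that make no functional Fgfr3, 1 array each, out of the 3 arrays of the series. The cells labelled FGFR3Act came from mice with the G374R change in Fgfr3 and no neo cassette (Fgfr3G374Rneo-), and the labels describe their receptor as active without ligand. The cells labelled FGFR3KO came from mice with the same G374R allele and the neo cassette still in it (FGFR3G374Rneo+), so that the altered codon is shared by both groups. The third array, FGFR3WT, held dermal fibroblasts of wild-type Bl6 mice and is given beside most values as the level without the allele. All cells were grown in fibroblast growth medium without treatment. Age, sex, passage and culture density are not given in the labels. The series states n = 3 for all groups, while the table has 1 column per group, and the sources used here do not say whether that column stands for a single culture, for pooled cultures or for an average. Every difference below is therefore between 2 arrays, has no replicate check and carries no test.

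The comparison covered all non-control probe sets with 1 gene symbol, which represented 7842 genes. Each gene was read from its brightest probe set, by the mean of the log2 signals of the 3 arrays. Signals are linear MAS5 intensities, Affymetrix's summary of the probe pairs of a probe set. Signals below a floor, the 40th percentile of each array's probe sets, were raised to it. The floor was 123 on FGFR3Act, 122 on FGFR3KO and 121 on FGFR3WT. A gene was compared where it was above the floor on FGFR3Act or FGFR3KO, which left 5297 genes, 4602 of them above it on both arrays. A fold against an array below the floor is written as "at least", and a minus sign on a log2 difference means lower on FGFR3Act.

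Fgfr3 is a receptor tyrosine kinase that fibroblast growth factors bring together in pairs, and its main route to the nucleus is the RAS, RAF, MEK and ERK kinase chain. ERK switches on immediate early transcription factors and also its own brakes, among them the Sprouty proteins and the phosphatase Dusp6. The outcome depends on the cell: active Fgfr3 restrains division of growth plate chondrocytes, while in other cells the same pathway drives G1 cyclins. Fibroblasts make the collagens, elastic fibres and proteoglycans of the dermis, and when activated they also make a contractile actin apparatus.

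The targeted gene gave no check of the genotypes. The Fgfr3 probe set read 2.42 on FGFR3Act, against 3.76 on FGFR3KO and 1.06 on FGFR3WT, below the floor on all 3 arrays. Fibroblast genes were bright on all 3 arrays, among them Col1a2 (10606 on FGFR3Act, against 18306 on FGFR3KO and 11799 on FGFR3WT), a chain of collagen I, and decorin, Dcn (11734 on FGFR3Act, against 11663 on FGFR3KO and 8376 on FGFR3WT). Markers of macrophages and other leukocytes stood apart on FGFR3Act: 22 of 24 compared markers were higher there than on FGFR3KO by 2-fold or more, as were 8.33% of all compared genes, and 0 were lower. Their summed signal was 52731 on FGFR3Act, 2366 on FGFR3KO and 2680.2 on FGFR3WT. In the same order, 24, 3 and 2 of them were above the floor. So 21 of the 24 had only a bound, entered the comparison through FGFR3Act alone and could not have come out lower there. The 3 above the floor on both arrays were Cd14, Cd52 and Lgals3, with log2 differences of 1.69, 0.87 and 1.98. The macrophage genes Lyz2 (lysozyme), Cd68, Csf1r, Adgre1 and C1qa were above the floor on FGFR3Act and below it on FGFR3KO and FGFR3WT. Other markers of the list were below the floor on all 3 arrays and were not compared. These were Itgam (35.2 on FGFR3Act), Aif1 (39.7 on FGFR3Act) and Marco (67.5 on FGFR3Act). The chosen probe set of the pan-leukocyte gene Ptprc was below the floor on both arrays compared, while its other probe set read 263 on FGFR3Act, against 1.56 on FGFR3KO and 2.05 on FGFR3WT. Among the other cell types, markers above the floor on either array numbered 2 of mast cells, 2 of lymphocytes, 2 of endothelium, 2 of keratinocytes, 3 of Schwann cells and melanocytes and 3 of skeletal muscle. Of these, only Perp was at least 2-fold apart, and it is also a p53 target gene. The 3'/5' ratio of the beta-actin control, a sign of RNA integrity, was 1.44 on FGFR3Act, 1.82 on FGFR3KO and 1.64 on FGFR3WT. The part of the leukocyte markers and of RNA integrity in the other differences below was not tested.

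Of the 5297 genes, 441 were higher on FGFR3Act than on FGFR3KO by 2-fold or more (8.33%) and 397 were lower by as much (7.49%), which makes 838 in either direction (15.8%). Each list count below is to be read beside the 8.33% and the 7.49%. Of the 441 higher genes, 331 were above the floor on both arrays and 110 had only a bound. The 397 lower genes held 319 and 78 of these kinds. At 4-fold or more, 81 genes were higher and 45 lower, and at 8-fold or more 28 were higher and 5 lower. The median difference over all compared genes was -0.052 on the log2 scale with quartiles at -0.47 and 0.41, and 61.4% of genes lay within 1.5-fold. Without the macrophage markers the counts were 419 and 397. Of 517 genes with several compared probe sets, the differences read by a gene's own probe sets spanned 0.49 on the log2 scale in the median and 1.30 at the 90th percentile. Of 92 genes at least 2-fold apart that had several such probe sets, 78 had all of them in the same direction. Only 39 of the 92 had all of them at least 2-fold apart in that direction.

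**Figure D1:**
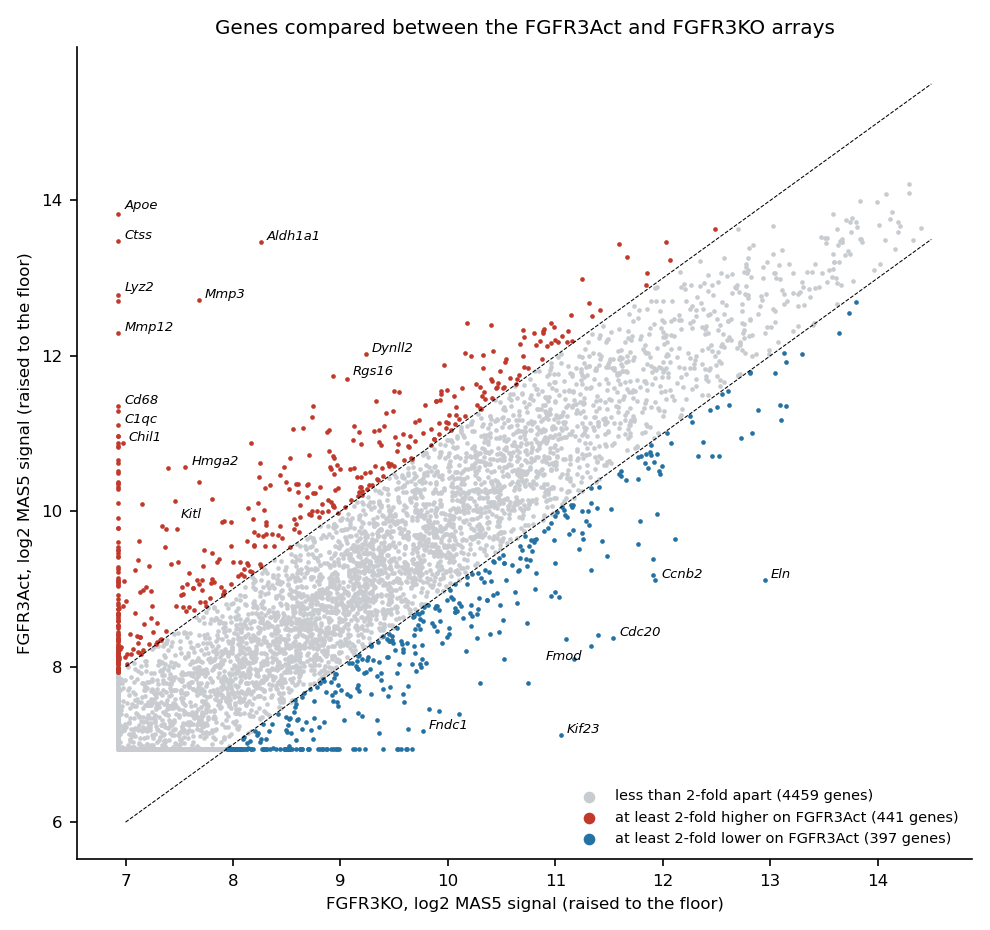
Log2 MAS5 signal of each of the 5297 compared genes on FGFR3KO (x axis) and FGFR3Act (y axis), with signals raised to the floor. Dashed lines mark 2-fold. The 441 genes above them are red and the 397 below them are blue, and points on the left and lower edges have 1 array below the floor.

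The genes furthest above on FGFR3Act, with both arrays over the floor, were led by Aldh1a1, a retinaldehyde dehydrogenase that makes retinoic acid. Its signal was 11271 on FGFR3Act, against 306 on FGFR3KO and 1619.8 on FGFR3WT, which is 36.9-fold higher on FGFR3Act than on FGFR3KO with FGFR3WT between them. Mmp3, the matrix protease stromelysin, read 6733 on FGFR3Act, against 205 on FGFR3KO and 1405 on FGFR3WT, 32.8-fold higher on FGFR3Act and again with FGFR3WT in the middle. The chitinase-like secreted protein gene Chil1 read 1884 on FGFR3Act, against 126 on FGFR3KO and 126 on FGFR3WT, which placed FGFR3Act 15.0-fold above 2 arrays that lay together just over the floor. Ch25h, the enzyme that makes 25-hydroxycholesterol, read 1505 on FGFR3Act, against 168 on FGFR3KO and 241 on FGFR3WT (8.95-fold). Hmga2, an architectural chromatin protein of growing mesenchyme, read 1519 on FGFR3Act, against 188 on FGFR3KO and 179.8 on FGFR3WT (8.07-fold). FGFR3KO and FGFR3WT were close to each other for both of these genes in comparison with their distance from FGFR3Act.

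Cd300c2, a receptor of myeloid cells, read 1096 on FGFR3Act, against 142 on FGFR3KO and 126 on FGFR3WT, 7.70-fold higher on FGFR3Act. Amot, the angiomotin scaffold that binds YAP, read 3435 on FGFR3Act, against 488 on FGFR3KO and 604 on FGFR3WT (7.03-fold). Dynll2, a dynein light chain, read 4160.4 on FGFR3Act, against 603 on FGFR3KO and 749.6 on FGFR3WT (6.90-fold). FGFR3Act was the array set apart in all of these. Slfn2, a Schlafen family gene, read 1885 on FGFR3Act, against 287 on FGFR3KO and 20.6 on FGFR3WT (6.57-fold), and FGFR3WT was below the floor. Ifit3, an interferon-induced gene, read 1334 on FGFR3Act, against 206 on FGFR3KO and 446 on FGFR3WT (6.48-fold). Kitl, the ligand of the receptor Kit, read 1121 on FGFR3Act, against 176 on FGFR3KO and 138 on FGFR3WT (6.37-fold). Rgs16, which shuts off G-protein alpha subunits, read 3325 on FGFR3Act, against 533 on FGFR3KO and 361 on FGFR3WT (6.24-fold). Among the 12 genes of this group, FGFR3KO was the lowest array for some and FGFR3WT for others, and FGFR3Act was the highest for each.

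The genes furthest below on FGFR3Act came largely from cell division and the elastic matrix. Kif23, a kinesin of the central spindle in cytokinesis, read 139 on FGFR3Act, against 2119.8 on FGFR3KO and 768 on FGFR3WT, 15.3-fold lower on FGFR3Act and only just over the floor there. Eln, elastin, read 556 on FGFR3Act, against 7902 on FGFR3KO and 6604 on FGFR3WT (14.2-fold lower), so that FGFR3KO and FGFR3WT lay together and FGFR3Act far below. Cdc20, an activator of the anaphase-promoting complex, read 330.5 on FGFR3Act, against 2969 on FGFR3KO and 1413 on FGFR3WT (8.98-fold). Cdkn1c, the imprinted CDK inhibitor p57, read 274 on FGFR3Act, against 2315 on FGFR3KO and 479 on FGFR3WT (8.46-fold), and here FGFR3KO was the array set apart. The small leucine-rich proteoglycan gene Fmod read 308 on FGFR3Act, against 2579 on FGFR3KO and 2439.7 on FGFR3WT (8.36-fold), and the imprinted gene Mest read 341 on FGFR3Act, against 2696 on FGFR3KO and 3101 on FGFR3WT (7.90-fold). For both, FGFR3Act was the low array and the other 2 were near each other.

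Anln, the anillin scaffold of the contractile ring, read 221 on FGFR3Act, against 1716 on FGFR3KO and 1082 on FGFR3WT (7.75-fold). Ccnb2, cyclin B2, read 557 on FGFR3Act, against 3908 on FGFR3KO and 2492 on FGFR3WT (7.02-fold). Mfap2, a microfibril glycoprotein that binds elastin, read 327 on FGFR3Act, against 2195 on FGFR3KO and 2065 on FGFR3WT (6.70-fold). The large proteoglycan versican, Vcan, read 579.5 on FGFR3Act, against 3857 on FGFR3KO and 1668 on FGFR3WT (6.66-fold). Ect2, which activates RhoA at the cleavage furrow, read 168 on FGFR3Act, against 1097 on FGFR3KO and 529 on FGFR3WT (6.51-fold). Fndc1, a fibronectin domain protein, read 145 on FGFR3Act, against 869.9 on FGFR3KO and 957 on FGFR3WT (6.01-fold). In the division genes the FGFR3WT signal lay between the other 2, whereas in Mfap2 and Fndc1 it lay beside FGFR3KO.

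**Figure D2:**
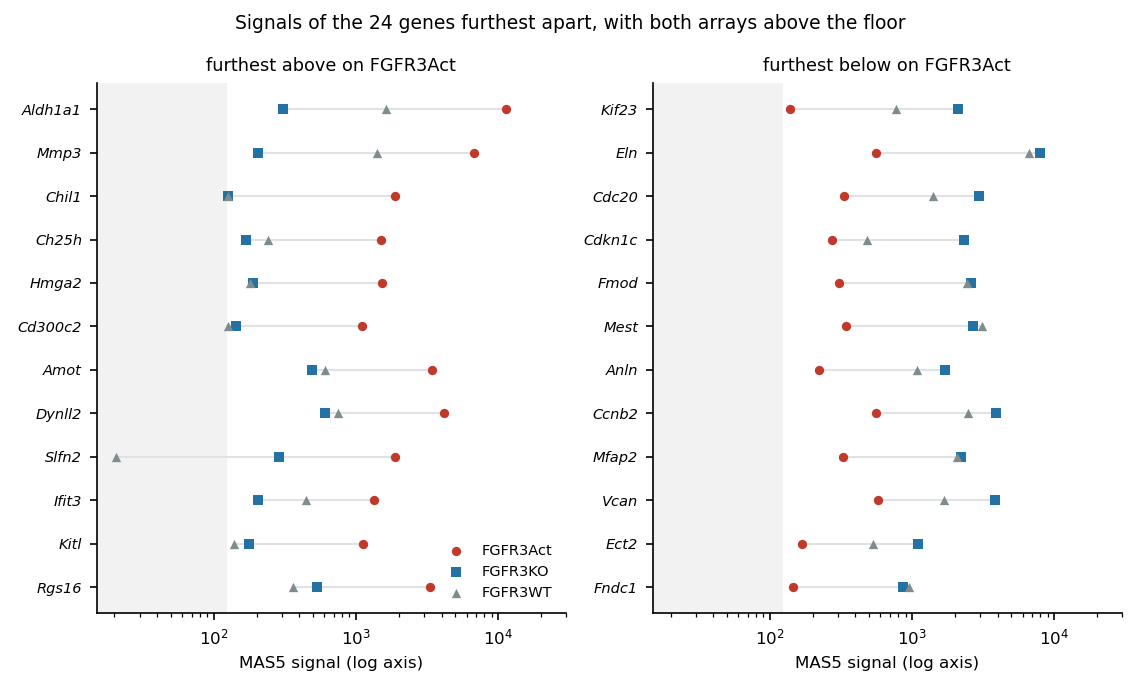
MAS5 signal (log axis) of the 12 genes furthest above and the 12 furthest below on FGFR3Act on each of the 3 arrays. The shaded area lies below the floor. Aldh1a1 spans 306 to 11271, with FGFR3WT at 1620, and Eln spans 556 to 7902, with FGFR3WT at 6604.

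Some genes were above the floor on only 1 of the 2 arrays. The highest bounds on FGFR3Act belonged to Apoe, the apolipoprotein of cholesterol transport, which read 14585 on FGFR3Act, against 81.8 on FGFR3KO and 245 on FGFR3WT (at least 119.7-fold higher). The lysosomal protease gene Ctss read 11427 on FGFR3Act, against 25.7 on FGFR3KO and 31.6 on FGFR3WT (at least 93.7-fold). Lyz2, lysozyme of myeloid cells, read 7037 on FGFR3Act, against 48.2 on FGFR3KO and 51.4 on FGFR3WT (at least 57.7-fold). Mpeg1, a perforin-like protein of macrophages, read 6665 on FGFR3Act, against 117 on FGFR3KO and 86.1 on FGFR3WT (at least 54.7-fold). Next came the macrophage elastase gene Mmp12 (at least 41.3-fold), Cd68 (at least 21.4-fold), the chemokine gene Ccl9 (at least 20.6-fold) and the complement gene C1qc (at least 18.1-fold). Macrophages express all of these, 5 of the 8 stand on the macrophage marker list, and the part of such cells in them was not tested. In bulk RNA, fewer cells of a type and less RNA per cell cannot be told apart.

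In the other direction the bounds were smaller. Mdk, the heparin-binding growth factor midkine, read 21.6 on FGFR3Act, against 810.1 on FGFR3KO and 309 on FGFR3WT (at least 6.61-fold lower on FGFR3Act). The amine oxidase gene Aoc3 read 83.1 on FGFR3Act, against 788 on FGFR3KO and 310.3 on FGFR3WT (at least 6.42-fold). Csrp2, a LIM protein of smooth muscle, read 83.9 on FGFR3Act, against 780.5 on FGFR3KO and 1334 on FGFR3WT (at least 6.36-fold), with FGFR3WT the highest array. The spindle checkpoint kinase gene Ttk read 74.4 on FGFR3Act, against 756 on FGFR3KO and 264 on FGFR3WT (at least 6.17-fold), and fibrillin 2, Fbn2, read 70.3 on FGFR3Act, against 743 on FGFR3KO and 493 on FGFR3WT (at least 6.06-fold). The kinesin genes Kif20a (at least 6.01-fold), Kif11 (at least 5.48-fold) and Kifc1 (at least 4.89-fold) were also below the floor on FGFR3Act and above it on FGFR3KO.

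Among FGF receptors and ligands, 17 genes were on the array and 5 were above the floor on either array. The receptor gene Fgfr1 read 730 on FGFR3Act, against 633 on FGFR3KO and 753 on FGFR3WT, a 1.15-fold difference, and Fgfr2 read 2032 on FGFR3Act, against 3209 on FGFR3KO and 1701 on FGFR3WT, 1.58-fold lower on FGFR3Act. Fgfr4 was below the floor on all 3 arrays. The ligand gene Fgf7, keratinocyte growth factor, read 1036 on FGFR3Act, against 313 on FGFR3KO and 269 on FGFR3WT and was 3.31-fold higher on FGFR3Act. Fgf18, a ligand of Fgfr3, read 29.1 on FGFR3Act, against 215 on FGFR3KO and 163 on FGFR3WT, at least 1.76-fold lower on FGFR3Act. Fgf7 was the 1 member at least 2-fold apart.

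FGF-ERK feedback regulators and targets were higher on FGFR3Act as a group: 9 of 16 were at least 2-fold higher and 0 were at least 2-fold lower, against 8.33% and 7.49% of all compared genes. The list's median difference was 1.10, against -0.052 over all genes. It was 0.73 for FGFR3Act minus FGFR3WT and -0.13 for FGFR3KO minus FGFR3WT, 2 comparisons that share the FGFR3WT array. Dusp6, the ERK phosphatase that ERK induces, read 966 on FGFR3Act, against 89.2 on FGFR3KO and 275 on FGFR3WT, at least 7.93-fold higher on FGFR3Act. Ccnd1, cyclin D1 of the G1 phase, read 5491 on FGFR3Act, against 1159 on FGFR3KO and 1394 on FGFR3WT (4.74-fold), and its other probe set read 449 on FGFR3Act, against 358 on FGFR3KO and 259.7 on FGFR3WT, a much smaller difference. Hmga2, given above, also stands on this list. The ligand gene Ereg, epiregulin, read 529 on FGFR3Act, against 5.73 on FGFR3KO and 76.7 on FGFR3WT (at least 4.34-fold), and Hbegf, a ligand of the EGF receptor, read 877 on FGFR3Act, against 379 on FGFR3KO and 434 on FGFR3WT (2.31-fold). Plaur, the urokinase receptor that ERK signalling induces, read 1268 on FGFR3Act, against 449 on FGFR3KO and 495 on FGFR3WT (2.82-fold). FGFR3KO and FGFR3WT lay close for Ccnd1, Hbegf and Plaur, while Dusp6 was lowest on FGFR3KO.

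Other members of the list were level. The Sprouty gene Spry4 read 359 on FGFR3Act, against 365 on FGFR3KO and 273 on FGFR3WT, a 1.02-fold difference. Spred2, another inhibitor of the chain, read 239 on FGFR3Act, against 272 on FGFR3KO and 374 on FGFR3WT, and the ETS factor Etv4 read 139.8 on FGFR3Act, against 163 on FGFR3KO and 163 on FGFR3WT. Myc read 186 on FGFR3Act, against 174 on FGFR3KO and 256 on FGFR3WT. These 4 members differed by less than 1.2-fold between FGFR3Act and FGFR3KO, so the list held level members beside those far apart.

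Immediate early factors were more mixed. Of 19 compared, 4 were higher on FGFR3Act by 2-fold or more (21.1%) and 1 was lower (5.26%), with a median of 0.47. Over all compared genes these shares were 8.33% and 7.49%. Ier3 and Fosl1 also stand on the FGF-ERK list and were already counted as higher there. Ier3 read 1435 on FGFR3Act, against 491 on FGFR3KO and 1049 on FGFR3WT (2.92-fold higher). Dusp1, a phosphatase of p38 and JNK, read 3987 on FGFR3Act, against 1488 on FGFR3KO and 2275 on FGFR3WT (2.68-fold), and Fos read 836 on FGFR3Act, against 317 on FGFR3KO and 646 on FGFR3WT (2.64-fold). Fosl1, a FOS family member that lasting ERK activity stabilises, read 423 on FGFR3Act, against 199 on FGFR3KO and 127 on FGFR3WT (2.13-fold). Jund went the other way, 3874 on FGFR3Act, against 9062 on FGFR3KO and 3232 on FGFR3WT, and there FGFR3KO was the array set apart (2.34-fold). Egr1, a direct ERK target, read 423 on FGFR3Act, against 261 on FGFR3KO and 397 on FGFR3WT, 1.62-fold higher on FGFR3Act than on FGFR3KO and near FGFR3WT.

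**Figure D3:**
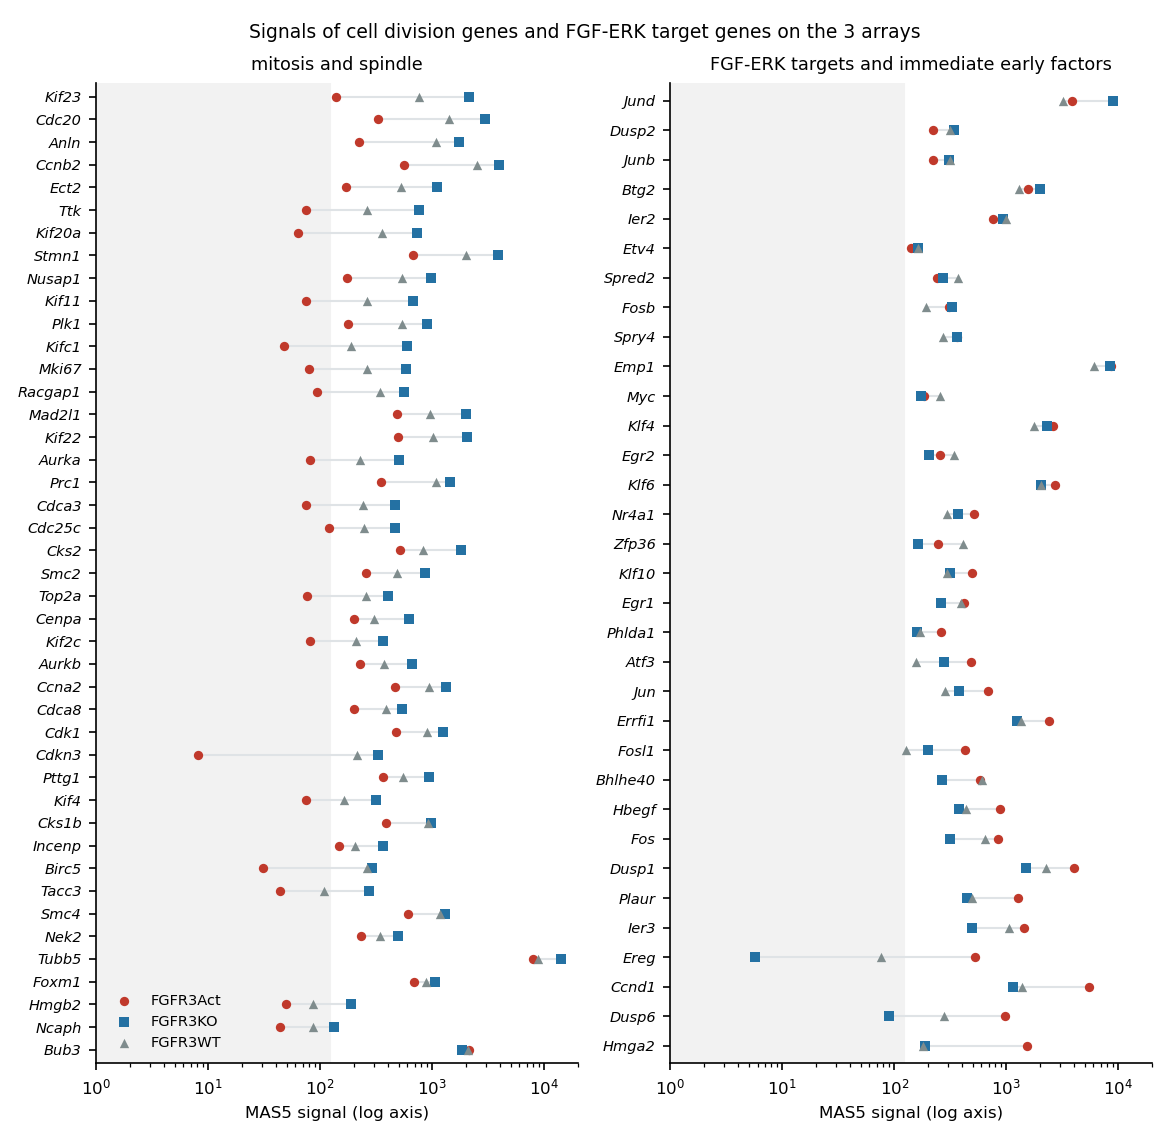
MAS5 signal (log axis) on the 3 arrays of the 43 compared mitosis genes (left) and of the FGF-ERK targets and immediate early factors (right), with the area below the floor shaded. On the left the FGFR3Act points lie below the FGFR3KO points in 42 of 43 genes, Bub3 being the exception. On the right Hmga2, Dusp6 and Ccnd1 lie furthest to the other side.

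Mitosis and spindle genes formed the group furthest below on FGFR3Act. Of 43 compared, 42 were lower on FGFR3Act, 38 of them by 2-fold or more, and 0 were at least 2-fold higher. All 43 were above the floor on FGFR3KO and 26 of them on FGFR3Act. The other 17 had only a bound, entered the comparison through FGFR3KO alone and could not have come out higher on FGFR3Act. Among the 26 above the floor on both arrays, Bub3 alone was higher on FGFR3Act. The list's median was -1.76. It was -0.98 for FGFR3Act minus FGFR3WT and 0.82 for FGFR3KO minus FGFR3WT. Mki67, the common marker of cycling cells, read 79.7 on FGFR3Act, against 578 on FGFR3KO and 263 on FGFR3WT (at least 4.71-fold lower). Plk1, a kinase of mitotic entry and spindle assembly, read 176 on FGFR3Act, against 905 on FGFR3KO and 535 on FGFR3WT (5.14-fold), and its other probe set read 50.4 on FGFR3Act, against 565 on FGFR3KO and 294 on FGFR3WT. Cdk1, the kinase that cyclin B activates, read 473 on FGFR3Act, against 1255 on FGFR3KO and 896 on FGFR3WT (2.65-fold). Top2a, the topoisomerase that untangles chromosomes, read 76.1 on FGFR3Act, against 399 on FGFR3KO and 255 on FGFR3WT (at least 3.26-fold), and Birc5, survivin, read 30.8 on FGFR3Act, against 288 on FGFR3KO and 262 on FGFR3WT (at least 2.35-fold). All 5 were lowest on FGFR3Act and highest on FGFR3KO. Foxm1, a transcription factor of these genes, read 687 on FGFR3Act, against 1058 on FGFR3KO and 885 on FGFR3WT, 1.54-fold lower. The spindle checkpoint gene Bub3 was the exception at 2116 on FGFR3Act, against 1841 on FGFR3KO and 2097 on FGFR3WT.

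DNA replication genes were also lower on FGFR3Act, by less. Of 36 compared, 10 were at least 2-fold lower and 0 were higher, with a median of -0.57. Pclaf, a partner of the sliding clamp PCNA, read 146 on FGFR3Act, against 792 on FGFR3KO and 260 on FGFR3WT (5.40-fold lower). Rrm1, the large subunit of ribonucleotide reductase, read 593 on FGFR3Act, against 1812 on FGFR3KO and 1264 on FGFR3WT (3.06-fold), and Uhrf1, which carries DNA methylation through replication, read 73.8 on FGFR3Act, against 373 on FGFR3KO and 268 on FGFR3WT (at least 3.05-fold). The clamp gene Pcna itself read 1396 on FGFR3Act, against 2438 on FGFR3KO and 1676 on FGFR3WT (1.75-fold). Rrm2, the small subunit of ribonucleotide reductase, read 939.6 on FGFR3Act, against 900.4 on FGFR3KO and 613 on FGFR3WT, so that the large subunit was apart and the small one was level. Among 11 DNA repair genes, 2 were at least 2-fold lower, Chek1 (171 on FGFR3Act, against 380.2 on FGFR3KO and 254 on FGFR3WT) and Brca2 (76.3 on FGFR3Act, against 246 on FGFR3KO and 192 on FGFR3WT).

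G1 regulators lay on both sides. Of 21 compared, 2 were higher on FGFR3Act by 2-fold or more and 4 lower, against 8.33% and 7.49% of all compared genes. The 2 higher members are 9.52% of the list, near the share of all compared genes. The 4 lower ones include Cdk4, whose probe sets went in opposite directions. The list's median was -0.011, a value whose sign turned under each of 3 other scalings. The D-type cyclins did not go together: Ccnd2 read 3685 on FGFR3Act, against 1283 on FGFR3KO and 1489 on FGFR3WT (2.87-fold higher) and Ccnd1 was higher as given above. Ccnd3 read 1684 on FGFR3Act, against 3561 on FGFR3KO and 2025 on FGFR3WT (2.11-fold lower). Their partner kinase gene Cdk4 read 2279 on FGFR3Act, against 4957 on FGFR3KO and 3564 on FGFR3WT, 2.18-fold lower, but its other probe set read 742 on FGFR3Act, against 516 on FGFR3KO and 789 on FGFR3WT, which is the opposite direction. The CDK inhibitor p57 gene, Cdkn1c, was lower as given above, while the p53-induced inhibitor gene Cdkn1a was level at 7034 on FGFR3Act, against 7088 on FGFR3KO and 7113 on FGFR3WT. Mxd4, a MYC antagonist, read 973 on FGFR3Act, against 2203 on FGFR3KO and 2573 on FGFR3WT (2.26-fold lower).

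Promoter windows of the division genes were read from RefSeq on build GRCm38.p6, from 250 bases before to 50 bases after each gene's start, on both strands. Where a gene had several windows, a match in any of them was counted. Cell cycle genes are known for a CHR element and for CCAAT boxes near their starts. The letters TTTGAA of the CHR were present in 26 of 35 mitosis windows (74.3%), against 15.6% of 6276 windows of genes on the array. They were present in 5 of 32 replication windows. CCAAT was present in 27 of 35 mitosis windows (77.1%) and 22 of 32 replication windows (68.8%), against 42.4%. The E2F letters TTTGGCGC and TTTCCCGC were in 5 and 6 of 32 replication windows, against 1.12% and 2.20%, and in 0 of 35 mitosis windows. A match is a description of the letters in these windows and not of a bound factor. The windows printed here were chosen after their matches were seen: Cdc20, Ccnb2 and Kif23, among the genes furthest below on FGFR3Act, show the CHR and CCAAT in capitals, and Pclaf, the replication gene furthest below, shows TTTCCCGC and CCAAT. Capitals that read ATTGG or GCGGGAAA are matches on the opposite strand. The windows lie at chr4:118437294-118437593 on the minus strand, chr9:70421505-70421804 on the minus strand, chr9:61946750-61947049 on the minus strand and chr9:65890073-65890372 on the plus strand.
Cdc20: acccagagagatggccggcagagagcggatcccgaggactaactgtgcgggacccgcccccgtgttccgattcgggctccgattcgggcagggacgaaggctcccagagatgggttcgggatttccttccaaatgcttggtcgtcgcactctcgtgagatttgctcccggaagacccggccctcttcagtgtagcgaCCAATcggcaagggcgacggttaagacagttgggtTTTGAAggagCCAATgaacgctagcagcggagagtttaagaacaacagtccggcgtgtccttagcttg
Ccnb2: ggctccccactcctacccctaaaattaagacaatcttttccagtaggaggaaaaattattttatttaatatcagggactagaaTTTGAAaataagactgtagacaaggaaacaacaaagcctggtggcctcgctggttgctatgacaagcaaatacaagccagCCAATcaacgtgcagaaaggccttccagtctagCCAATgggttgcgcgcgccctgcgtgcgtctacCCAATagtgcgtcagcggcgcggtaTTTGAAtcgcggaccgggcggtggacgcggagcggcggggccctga
Kif23: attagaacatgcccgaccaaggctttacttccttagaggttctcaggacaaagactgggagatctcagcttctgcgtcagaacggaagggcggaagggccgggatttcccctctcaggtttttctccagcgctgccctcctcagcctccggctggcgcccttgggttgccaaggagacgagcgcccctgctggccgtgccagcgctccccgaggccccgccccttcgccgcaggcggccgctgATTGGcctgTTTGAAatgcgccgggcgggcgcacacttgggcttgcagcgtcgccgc
Pclaf: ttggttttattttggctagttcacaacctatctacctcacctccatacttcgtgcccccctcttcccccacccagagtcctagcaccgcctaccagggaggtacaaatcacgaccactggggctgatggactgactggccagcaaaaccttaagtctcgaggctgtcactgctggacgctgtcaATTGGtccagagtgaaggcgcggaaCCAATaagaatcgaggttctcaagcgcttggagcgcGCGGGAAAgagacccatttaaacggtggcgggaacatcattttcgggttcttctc

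Genes of cholesterol synthesis were lower on FGFR3Act throughout. All 16 compared lay below FGFR3KO, 7 of them at least 2-fold and 0 at least 2-fold higher. The median was -0.91, with -1.02 for FGFR3Act minus FGFR3WT and 0.073 for FGFR3KO minus FGFR3WT. Fdps, which makes farnesyl diphosphate, read 797 on FGFR3Act, against 4441 on FGFR3KO and 3130.3 on FGFR3WT (5.57-fold lower), and its other probe set read 575 on FGFR3Act, against 2282 on FGFR3KO and 1707 on FGFR3WT. Mvd, of the mevalonate steps, read 159.5 on FGFR3Act, against 524 on FGFR3KO and 377 on FGFR3WT (3.29-fold), and the lanosterol synthase gene Lss read 275 on FGFR3Act, against 867 on FGFR3KO and 657 on FGFR3WT (3.16-fold). Fdft1, squalene synthase, read 629 on FGFR3Act, against 1706 on FGFR3KO and 1247 on FGFR3WT (2.71-fold). In each of these 4 FGFR3KO was the highest array and FGFR3Act the lowest. Ebp and Dhcr7 act late in the pathway. Ebp read 627 on FGFR3Act, against 741 on FGFR3KO and 651 on FGFR3WT (1.18-fold). Dhcr7 was below the floor on FGFR3Act, so that its difference is a bound (86.2 on FGFR3Act, against 133 on FGFR3KO and 153 on FGFR3WT, at least 1.08-fold lower).

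The sterol regulatory element, searched as TCACNCCAC on both strands, was present in 1 of 13 cholesterol windows (7.69%), against 1.66% of the windows of genes on the array. CCAAT was present in all 13 (42.4% on the array). The 1 match lay in the promoter of Hmgcs1, HMG-CoA synthase, whose signals were 482 on FGFR3Act, against 887 on FGFR3KO and 1044 on FGFR3WT. Its window, chr13:119690101-119690400 on the plus strand, is shown with TCACCCCAC and the CCAAT boxes in capitals.
Hmgcs1: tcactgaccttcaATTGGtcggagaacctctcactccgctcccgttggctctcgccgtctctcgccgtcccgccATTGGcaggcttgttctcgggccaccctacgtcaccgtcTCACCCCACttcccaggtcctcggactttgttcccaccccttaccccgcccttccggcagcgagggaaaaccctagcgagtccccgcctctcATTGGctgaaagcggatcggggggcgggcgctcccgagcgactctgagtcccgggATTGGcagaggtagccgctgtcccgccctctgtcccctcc

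Fatty acid genes lay on both sides. Of 10 compared, 4 were at least 2-fold lower on FGFR3Act and 1 was at least 2-fold higher. Elovl6, a fatty acid elongase, read 169 on FGFR3Act, against 573 on FGFR3KO and 265 on FGFR3WT (3.39-fold lower), and the fatty acid synthase gene Fasn read 545 on FGFR3Act, against 1296 on FGFR3KO and 747 on FGFR3WT (2.38-fold). Me1, malic enzyme, read 1946 on FGFR3Act, against 937 on FGFR3KO and 1826 on FGFR3WT (2.08-fold higher), and the desaturase gene Scd1 read 2596 on FGFR3Act, against 3060.3 on FGFR3KO and 2886 on FGFR3WT. The other Scd1 probe set went the opposite way, at 2162 on FGFR3Act, against 1709.6 on FGFR3KO and 2186 on FGFR3WT. Elongase genes differed: Elovl1 (322 on FGFR3Act, against 759 on FGFR3KO and 403 on FGFR3WT) was at least 2-fold lower on FGFR3Act, while Elovl5 was level at 2538 on FGFR3Act, against 2354 on FGFR3KO and 2772 on FGFR3WT. The desaturase gene Fads1 (925 on FGFR3Act, against 1994 on FGFR3KO and 1599 on FGFR3WT) was also at least 2-fold lower on FGFR3Act. Of 11 genes of sterol export and lipoproteins, 0 were at least 2-fold lower on FGFR3Act and 4 were higher by 2-fold or more. Besides Apoe and Ch25h they were the acid lipase gene Lipa (828 on FGFR3Act, against 302 on FGFR3KO and 432 on FGFR3WT) and the sterol exporter gene Abcg1 (1018 on FGFR3Act, against 455 on FGFR3KO and 504 on FGFR3WT). The exporter gene Abca1 read 2379.7 on FGFR3Act, against 1459 on FGFR3KO and 1193 on FGFR3WT (1.63-fold). Macrophages also express Apoe, Lipa and Abcg1, the macrophage list was higher on the same array, and its part in these values was not tested.

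Collagens, the main structural proteins of the dermis, lay on the low side on FGFR3Act. Of 20 collagen genes, 6 were at least 2-fold lower and 0 were higher, with a median of -0.65. Collagen I was read differently by its probe sets. The brighter Col1a1 probe set read 7845 on FGFR3Act, against 12570.2 on FGFR3KO and 8475 on FGFR3WT, 1.60-fold lower, while the other read 1251 on FGFR3Act, against 9553 on FGFR3KO and 9602 on FGFR3WT, a log2 difference of -2.93. Col1a2 read 10606 on FGFR3Act and 18306 on FGFR3KO (1.73-fold). Col3a1 read 4166 on FGFR3Act, against 10066 on FGFR3KO and 8069 on FGFR3WT (2.42-fold), and its other probe set read 193 on FGFR3Act, against 958 on FGFR3KO and 1748 on FGFR3WT, a log2 difference of -2.31. All of these probe sets read lower on FGFR3Act than on FGFR3KO, and the size of the collagen I difference is not settled by the array. The 3 chains of collagen VI were at least 2-fold lower: Col6a2 (475 on FGFR3Act, against 2092 on FGFR3KO and 1829 on FGFR3WT), Col6a3 (2531 on FGFR3Act, against 7576 on FGFR3KO and 7583 on FGFR3WT) and Col6a1 (3564 on FGFR3Act, against 7200.3 on FGFR3KO and 5754 on FGFR3WT). The others past 2-fold were Col4a1 of basement membranes (4200 on FGFR3Act, against 8975 on FGFR3KO and 6338 on FGFR3WT) and Col8a1 (3511 on FGFR3Act, against 7205 on FGFR3KO and 7508 on FGFR3WT).

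Collagen processing genes were partly lower: 4 of 13 at least 2-fold lower and 1 higher. Bmp1, the proteinase that trims procollagen, read 379.7 on FGFR3Act, against 1703 on FGFR3KO and 1207 on FGFR3WT (4.48-fold lower), and its other probe set read 390.5 on FGFR3Act, against 912 on FGFR3KO and 1119 on FGFR3WT. Its enhancer Pcolce read 2646 on FGFR3Act, against 6263 on FGFR3KO and 5847 on FGFR3WT (2.37-fold), and Ppib, a prolyl isomerase that assists collagen folding, read 1715 on FGFR3Act, against 3959 on FGFR3KO and 3500.2 on FGFR3WT (2.31-fold). Tll1, a proteinase related to Bmp1, was the member higher on FGFR3Act (413 on FGFR3Act, against 101 on FGFR3KO and 261 on FGFR3WT). The crosslinking enzyme gene Lox read 8348 on FGFR3Act, against 6219 on FGFR3KO and 6178 on FGFR3WT (1.34-fold higher).

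Elastic fibre genes held some of the longest distances in the matrix. Of 10 compared, 4 were at least 2-fold lower on FGFR3Act and 0 were higher: Eln, Mfap2 and Fbn2, given above, and Fbln1, fibulin 1 (645 on FGFR3Act, against 1469 on FGFR3KO and 657 on FGFR3WT). For Fbln1 it was FGFR3KO that stood apart. Its other probe sets were lower on FGFR3Act by less than 2-fold, with log2 differences of -0.60 and -0.78. Ltbp1, which holds latent TGF-beta in the matrix, read 895 on FGFR3Act, against 448 on FGFR3KO and 615 on FGFR3WT, higher on FGFR3Act. Among 9 proteoglycan genes and their partners, 0 were at least 2-fold higher and 3 were at least 2-fold lower: Fmod, Vcan and aggrecan, Acan (68.5 on FGFR3Act, against 319 on FGFR3KO and 202 on FGFR3WT). Decorin and biglycan did not share this: Dcn differed by 1.01-fold, and Bgn read 17549 on FGFR3Act, against 20018 on FGFR3KO and 12274 on FGFR3WT. In basement membrane genes, 2 of 11 were at least 2-fold lower, perlecan Hspg2 (80.8 on FGFR3Act, against 453 on FGFR3KO and 223 on FGFR3WT) and the nidogen gene Nid2 (162 on FGFR3Act, against 431 on FGFR3KO and 371 on FGFR3WT).

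Fibronectin and the matricellular genes went both ways, 3 of 18 higher on FGFR3Act by 2-fold or more and 4 lower. Fibronectin itself, Fn1, was level at 2001 on FGFR3Act, against 1981 on FGFR3KO and 1613 on FGFR3WT. Ccn2, connective tissue growth factor and a target of TGF-beta and YAP, read 11101 on FGFR3Act, against 3083 on FGFR3KO and 8061 on FGFR3WT (3.60-fold higher). Ccn1, of the same family, read 2982 on FGFR3Act, against 982 on FGFR3KO and 2462 on FGFR3WT (3.04-fold higher). For both genes FGFR3KO was the low array and FGFR3WT lay nearer to FGFR3Act. Ccn3, also of this family, read 1679.7 on FGFR3Act, against 5635 on FGFR3KO and 2578 on FGFR3WT (3.35-fold lower). The family members Ccn4 (1458 on FGFR3Act, against 1707 on FGFR3KO and 4419.5 on FGFR3WT) and Ccn5 (3784 on FGFR3Act, against 5771 on FGFR3KO and 5364 on FGFR3WT) were lower on FGFR3Act than on FGFR3KO by less than 2-fold. Thbs2 read 5094 on FGFR3Act, against 1888 on FGFR3KO and 3124 on FGFR3WT (2.70-fold higher), and Thbs3 read 204 on FGFR3Act, against 467 on FGFR3KO and 505 on FGFR3WT (2.29-fold lower), so that thrombospondins did not share a direction either.

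Matrix metalloproteinases and their inhibitors were more often higher than lower on FGFR3Act: 6 of 19 at least 2-fold higher and 1 lower, with a median of 0.65. Besides Mmp3 and Mmp12 they were Adam8, a membrane protease of myeloid cells (1997 on FGFR3Act, against 7.46 on FGFR3KO and 18.8 on FGFR3WT), the inhibitor gene Timp2 (2069 on FGFR3Act, against 577 on FGFR3KO and 1396 on FGFR3WT), the collagenase gene Mmp13 (488 on FGFR3Act, against 185 on FGFR3KO and 908 on FGFR3WT) and the sheddase gene Adam10 (1111 on FGFR3Act, against 482 on FGFR3KO and 1073 on FGFR3WT). Mmp13 was highest on FGFR3WT. The other probe set of Adam10 lay near the floor, at 134 on FGFR3Act, against 97.5 on FGFR3KO and 119 on FGFR3WT. Mmp14, the membrane collagenase of fibroblasts, read 4176 on FGFR3Act, against 8144 on FGFR3KO and 7157 on FGFR3WT (1.95-fold lower), and Mmp11 read 197 on FGFR3Act, against 546 on FGFR3KO and 470 on FGFR3WT (2.77-fold lower). In plasminogen activation and coagulation, 3 of 13 were at least 2-fold higher and 0 lower: the protein C receptor gene Procr (1299 on FGFR3Act, against 325 on FGFR3KO and 251 on FGFR3WT), Plaur and the urokinase gene Plau (349 on FGFR3Act, against 152 on FGFR3KO and 183 on FGFR3WT). Of the 19 protease and inhibitor genes, 7 had only a bound. Mmp9, Mmp10, Mmp12, Mmp16 and Adam8 entered the comparison through FGFR3Act alone and could not have come out lower there. Mmp17 and Adam12 entered through FGFR3KO alone and could not have come out higher on FGFR3Act. The members above the floor on both arrays lay on both sides. Mmp12 and Adam8 were below the floor on FGFR3KO and FGFR3WT, as were most macrophage markers, and the part of macrophages in these values was not tested.

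**Figure D4:**
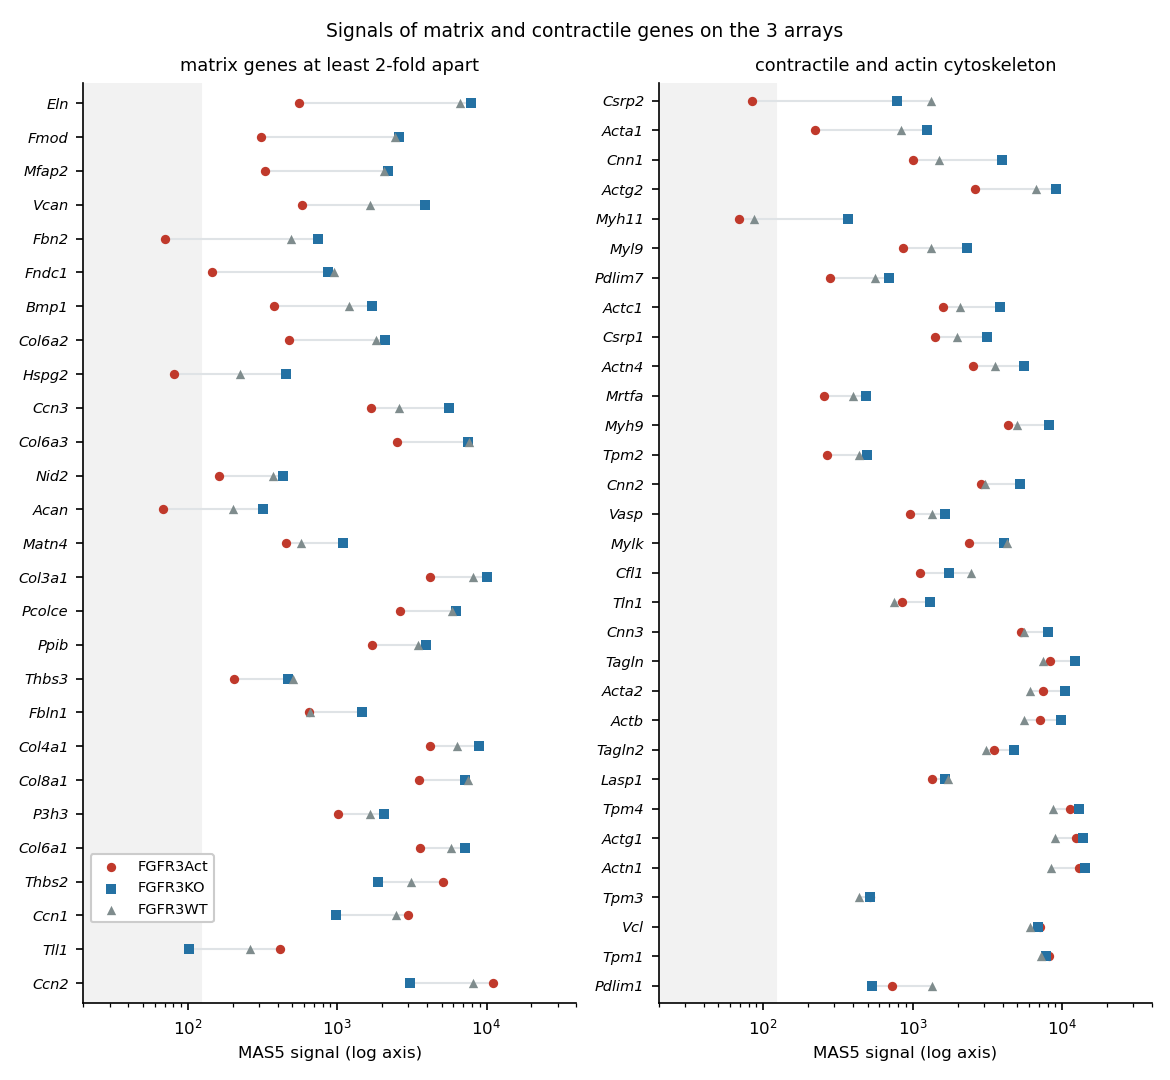
MAS5 signal (log axis) on the 3 arrays of the matrix genes at least 2-fold apart (left) and of the 31 compared contractile and actin genes (right), with the area below the floor shaded. Most matrix genes shown and 28 of 31 contractile genes are lower on FGFR3Act than on FGFR3KO. Ccn2, Ccn1, Thbs2 and Tll1 lie the other way on the left.

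Contractile and actin cytoskeleton genes were lower on FGFR3Act in 28 of 31 members, by 2-fold or more in 10, and 0 were at least 2-fold higher. The median was -0.77, with -0.36 for FGFR3Act minus FGFR3WT and 0.59 for FGFR3KO minus FGFR3WT. Acta1, skeletal alpha-actin, read 221 on FGFR3Act, against 1256 on FGFR3KO and 838 on FGFR3WT (5.69-fold lower). Cnn1, smooth muscle calponin, read 1001 on FGFR3Act, against 3936 on FGFR3KO and 1507 on FGFR3WT (3.93-fold), and Actg2, smooth muscle gamma-actin, read 2619.7 on FGFR3Act, against 9089 on FGFR3KO and 6744 on FGFR3WT (3.47-fold). Myh11, smooth muscle myosin, read 68.9 on FGFR3Act, against 370 on FGFR3KO and 86.8 on FGFR3WT (at least 3.02-fold), and Myl9, a myosin light chain, read 865 on FGFR3Act, against 2294 on FGFR3KO and 1335 on FGFR3WT (2.65-fold). FGFR3KO was the highest array for these 5, and Myh11 was above the floor on no other. Acta2, the alpha smooth muscle actin by which myofibroblasts are recognised, read 7424 on FGFR3Act, against 10494 on FGFR3KO and 6145 on FGFR3WT, 1.41-fold lower on FGFR3Act than on FGFR3KO. Tagln, also used as such a marker, read 8291 on FGFR3Act, against 12228 on FGFR3KO and 7436 on FGFR3WT (1.47-fold). Neither passed 2-fold. The cytoskeletal actin gene Actb read 7098 on FGFR3Act, against 9803 on FGFR3KO and 5524 on FGFR3WT, and its other probe set read 363 on FGFR3Act, against 259.7 on FGFR3KO and 164 on FGFR3WT, the opposite direction. Mrtfa, the actin-sensing coactivator of these genes, read 254 on FGFR3Act, against 484 on FGFR3KO and 400 on FGFR3WT (1.90-fold lower).

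The CArG box, the site of serum response factor, was searched by its consensus on both strands. It was present in 6 of 26 contractile windows (23.1%), against 1.94% of windows of genes on the array. It was present in 0 of 35 mitosis windows and 0 of 7 FGF-ERK windows. The AP-1 letters TGANTCA were in 2 of 7 FGF-ERK windows, against 7.58%, and the CRE letters TGACGTCA in 1 of 7, against 3.11%. Of the contractile genes with a CArG match, Acta1, Actc1 and Myl9 were at least 2-fold lower on FGFR3Act. Cnn2, Actg1 and Vcl were less than 2-fold apart, with log2 differences of -0.87, -0.16 and 0.037. The windows of Acta1, at chr8:123894726-123895025 on the minus strand, and Myl9, at chr2:156775214-156775513 on the plus strand, are shown with the CArG box in capitals, as contractile genes at least 2-fold lower on FGFR3Act that hold a match.
Acta1: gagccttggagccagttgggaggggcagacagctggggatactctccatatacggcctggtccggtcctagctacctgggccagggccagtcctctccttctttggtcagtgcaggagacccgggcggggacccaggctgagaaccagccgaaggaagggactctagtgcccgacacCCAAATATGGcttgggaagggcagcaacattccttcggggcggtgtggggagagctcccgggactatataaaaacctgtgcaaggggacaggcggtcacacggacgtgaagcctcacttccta
Myl9: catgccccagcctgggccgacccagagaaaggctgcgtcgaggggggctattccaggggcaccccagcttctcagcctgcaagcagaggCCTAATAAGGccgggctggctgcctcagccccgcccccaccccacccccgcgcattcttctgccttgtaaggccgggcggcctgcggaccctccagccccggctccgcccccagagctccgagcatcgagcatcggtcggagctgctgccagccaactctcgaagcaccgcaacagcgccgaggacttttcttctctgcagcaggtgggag

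The TGF-beta, activin and BMP pathway had a median of -0.0041 over 29 genes, near that of all genes, and its sign turned under 2 of 3 other scalings. Of these, 3 were higher on FGFR3Act by 2-fold or more (10.3%) and 1 was lower (3.45%), against 8.33% and 7.49% of all compared genes. The ligand gene Tgfb1 was below the floor on all 3 arrays (26.6 on FGFR3Act, against 35.1 on FGFR3KO and 27.0 on FGFR3WT). Tgfb2 and Tgfb3 read 312 on FGFR3Act, against 390 on FGFR3KO and 663 on FGFR3WT, and 3387 on FGFR3Act, against 4622 on FGFR3KO and 3686 on FGFR3WT. The activin subunit genes were higher on FGFR3Act, Inhbb at 547 on FGFR3Act, against 100.4 on FGFR3KO and 91.9 on FGFR3WT (at least 4.49-fold) and Inhba at 6171 on FGFR3Act, against 3514 on FGFR3KO and 2418 on FGFR3WT (1.76-fold). Id2, an inhibitor of bHLH factors and a BMP target, read 2077 on FGFR3Act, against 469.6 on FGFR3KO and 335 on FGFR3WT (4.42-fold higher), and its relatives Id3 (1396 on FGFR3Act, against 731 on FGFR3KO and 761 on FGFR3WT) and Id1 (221 on FGFR3Act, against 163 on FGFR3KO and 137 on FGFR3WT) were under 2-fold. Grem1, a secreted BMP antagonist, read 332 on FGFR3Act, against 28.6 on FGFR3KO and 147 on FGFR3WT (at least 2.72-fold higher). The activin receptor gene Acvr2a read 264 on FGFR3Act, against 553 on FGFR3KO and 597 on FGFR3WT (2.10-fold lower).

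Chemokines, cytokines and acute-phase genes were higher on FGFR3Act by 2-fold or more in 11 of 30 and lower in 0, with a median of 0.46. Of the 30, 29 were above the floor on FGFR3Act and 21 on FGFR3KO, and 10 had only a bound. Members above it on FGFR3Act alone could not have come out lower there, among them Lcn2, Ccl3, Ccl6, Ccl8 and Ccl9 of those counted as higher. Lcn2, a siderophore-binding acute-phase protein, read 1249 on FGFR3Act, against 87.1 on FGFR3KO and 41.4 on FGFR3WT (at least 10.2-fold). Ackr3, a scavenging receptor of Cxcl12, read 873 on FGFR3Act, against 178 on FGFR3KO and 823 on FGFR3WT (4.90-fold), with FGFR3WT near FGFR3Act. The neutrophil chemokine gene Cxcl1 read 3071 on FGFR3Act, against 1122 on FGFR3KO and 589 on FGFR3WT (2.74-fold), and its other probe set read 2446 on FGFR3Act, against 829 on FGFR3KO and 659 on FGFR3WT. Ccl7 read 4561 on FGFR3Act, against 1632 on FGFR3KO and 2173 on FGFR3WT, Ccl2 read 7709.8 on FGFR3Act, against 3676 on FGFR3KO and 2857 on FGFR3WT and the acute-phase gene Saa3 read 6555 on FGFR3Act, against 2545 on FGFR3KO and 1741 on FGFR3WT. These 4 were above the floor on all 3 arrays, unlike Ccl3 (486 on FGFR3Act, against 103 on FGFR3KO and 13.2 on FGFR3WT) and Ccl6 (384 on FGFR3Act, against 99.0 on FGFR3KO and 32.6 on FGFR3WT), which only FGFR3Act showed above it. Ptgs2, the inducible prostaglandin synthase, read 1517 on FGFR3Act, against 355 on FGFR3KO and 457 on FGFR3WT (4.27-fold higher), while the prostacyclin synthase gene Ptgis read 280.2 on FGFR3Act, against 693 on FGFR3KO and 399.6 on FGFR3WT (2.47-fold lower). The summed macrophage markers were 52731 on FGFR3Act and 2366 on FGFR3KO, and their part in the chemokine values was not tested.

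Complement and antigen presentation genes were higher on FGFR3Act in part. Of 12 complement genes, 5 were at least 2-fold higher and 0 lower, and all 5 were below the floor on FGFR3KO: C1qa, C1qb, C1qc, C3ar1 and Cfp. All 12 were above the floor on FGFR3Act, and the 7 with only a bound could not have come out lower there. The 3 C1q genes are also on the macrophage list. C1ra, made by fibroblasts, read 1462 on FGFR3Act, against 1545 on FGFR3KO and 1527 on FGFR3WT. Of 11 antigen presentation genes, 4 were at least 2-fold higher and 0 lower. The class I genes H2-K1 and H2-D1 read 6156 on FGFR3Act, against 2729 on FGFR3KO and 3861 on FGFR3WT, and 4589.6 on FGFR3Act, against 1995 on FGFR3KO and 2885 on FGFR3WT, while their light chain gene B2m was level at 9332 on FGFR3Act, against 9269 on FGFR3KO and 7564 on FGFR3WT. Class I genes are near-identical copies whose probe sets may share targets. Interferon-response genes lay on both sides, 5 of 21 at least 2-fold higher and 1 lower. Ifit2 read 1107 on FGFR3Act, against 54.0 on FGFR3KO and 201 on FGFR3WT (at least 9.08-fold higher) and Ifit3 was higher as given above, whereas Ifitm3 read 3519 on FGFR3Act, against 8461 on FGFR3KO and 5735 on FGFR3WT (2.40-fold lower) and Isg15 read 339.7 on FGFR3Act, against 575 on FGFR3KO and 522 on FGFR3WT.

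Lysosomal genes were higher on FGFR3Act by 2-fold or more in 10 of 37 and lower in 0, with a median of 0.80. Ctsc, cathepsin C, read 1652 on FGFR3Act, against 371 on FGFR3KO and 318 on FGFR3WT (4.45-fold), and the legumain gene Lgmn read 1684 on FGFR3Act, against 488 on FGFR3KO and 760.2 on FGFR3WT (3.45-fold). Psap, the precursor of the saposins, read 9901 on FGFR3Act, against 3248 on FGFR3KO and 4997 on FGFR3WT (3.05-fold). Ctsb, cathepsin B, read 11339.9 on FGFR3Act, against 4175 on FGFR3KO and 3804 on FGFR3WT (2.72-fold), and its other probe sets gave larger differences, 2.83 and 3.03 on the log2 scale. The membrane protein gene Lamp1 read 14528 on FGFR3Act, against 12261 on FGFR3KO and 11055 on FGFR3WT, 1.18-fold apart. Lamp2 read 4486 on FGFR3Act, against 1946 on FGFR3KO and 4185 on FGFR3WT (2.31-fold), but its other probe set was level at 1410.4 on FGFR3Act, against 1500.2 on FGFR3KO and 1708 on FGFR3WT. Ctss and Cd68 of this list are macrophage genes below the floor on FGFR3KO, and the part of macrophages in the remaining members was not tested.

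Retinoid metabolism genes lay on both sides. Aldh1a1 and its close relative Aldh1a7 (335 on FGFR3Act, against 138 on FGFR3KO and 214 on FGFR3WT) were higher on FGFR3Act. These are closely related genes, and signal shared between their probe sets was not tested. Adh1, an alcohol dehydrogenase that oxidises retinol, read 45.8 on FGFR3Act, against 555 on FGFR3KO and 141 on FGFR3WT (at least 4.52-fold lower). The receptor gene Rxra read 425 on FGFR3Act, against 967 on FGFR3KO and 636 on FGFR3WT (2.27-fold lower), and Rarg read 314 on FGFR3Act, against 459 on FGFR3KO and 336 on FGFR3WT. The other probe set of Rxra read 233 on FGFR3Act, against 293 on FGFR3KO and 187 on FGFR3WT, a log2 difference of -0.33. By 2-fold or more, 3 of 12 members were higher and 2 lower.

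Growth factor genes apart from the FGFs had 2 of 16 higher on FGFR3Act by 2-fold or more and 2 lower, against 8.33% and 7.49% of all compared genes. Kitl was higher as given above, and the neurotrophin gene Bdnf read 5011 on FGFR3Act, against 1895 on FGFR3KO and 3339 on FGFR3WT (2.64-fold higher). Igf1 read 1269 on FGFR3Act, against 2716 on FGFR3KO and 1424 on FGFR3WT (2.14-fold lower), but its other probe set read 841 on FGFR3Act, against 774 on FGFR3KO and 693 on FGFR3WT. The PDGF receptor gene Pdgfrb read 239.5 on FGFR3Act, against 495 on FGFR3KO and 563 on FGFR3WT (2.07-fold lower), and Pdgfra read 1626 on FGFR3Act, against 2181 on FGFR3KO and 2818 on FGFR3WT. Imprinted growth regulators were at least 2-fold lower in 6 of 14 and higher in 1. Besides Cdkn1c and Mest these were Dlk1 (142 on FGFR3Act, against 658 on FGFR3KO and 290.4 on FGFR3WT), the noncoding gene Meg3 of the same locus (262 on FGFR3Act, against 813 on FGFR3KO and 295 on FGFR3WT), the transporter gene Slc38a4 (60.4 on FGFR3Act, against 366 on FGFR3KO and 137 on FGFR3WT) and Peg3 (445 on FGFR3Act, against 1186 on FGFR3KO and 666 on FGFR3WT). FGFR3KO was the array set apart for Dlk1, Slc38a4 and Peg3, with FGFR3WT nearer to FGFR3Act. The other probe set of Meg3 read 98.0 on FGFR3Act, against 886 on FGFR3KO and 646 on FGFR3WT. By that probe set FGFR3WT lay nearer to FGFR3KO, unlike by the one given above. Impact was the member higher on FGFR3Act (628 on FGFR3Act, against 149 on FGFR3KO and 362 on FGFR3WT).

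Fibroblast markers, which bear on the identity of the cells, were mostly within 2-fold: 1 of 21 was higher and 3 were lower, with a median of -0.42. Over all compared genes these shares were 8.33% and 7.49%. The member higher on FGFR3Act was Dpt, dermatopontin of the dermal matrix (608 on FGFR3Act, against 136 on FGFR3KO and 182 on FGFR3WT). Thy1 read 6948 on FGFR3Act, against 10611 on FGFR3KO and 6088 on FGFR3WT, and the mesenchymal factor gene Twist2 read 1701 on FGFR3Act, against 1708 on FGFR3KO and 1108 on FGFR3WT. Of 9 adipocyte genes compared, 6 were lower on FGFR3Act, with a median of -0.42, and by 2-fold or more 1 was higher and 1 lower. The higher one was Plin2 of lipid droplets, which read 4099 on FGFR3Act, against 1192 on FGFR3KO and 1823 on FGFR3WT (3.44-fold), and the lower one was Dlk1, given above. The adipogenic factor gene Cebpb read 875 on FGFR3Act, against 1561 on FGFR3KO and 1358 on FGFR3WT and its relative Cebpa read 514 on FGFR3Act, against 296 on FGFR3KO and 355 on FGFR3WT, on opposite sides. Fabp4 was near the floor at 133 on FGFR3Act, against 103 on FGFR3KO and 93.3 on FGFR3WT.

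Other signalling and adhesion lists went both ways, and their counts are read against the 8.33% of all compared genes that were at least 2-fold higher and the 7.49% that were at least 2-fold lower. The WNT and adhesion lists did not exceed these shares. In the WNT pathway 1 of 19 was higher on FGFR3Act by 2-fold or more, the antagonist gene Dkk2 (436 on FGFR3Act, against 185 on FGFR3KO and 499 on FGFR3WT), and 1 lower, the receptor gene Fzd2 (783 on FGFR3Act, against 2777 on FGFR3KO and 1628 on FGFR3WT). In the Notch pathway Rbpj, its DNA-binding factor, read 878 on FGFR3Act, against 167 on FGFR3KO and 412 on FGFR3WT (5.27-fold higher), Numb was at least 2.65-fold higher and Notch3 2.06-fold lower among 9 genes. Of 16 positional genes, Hoxb5 (134 on FGFR3Act, against 307 on FGFR3KO and 105 on FGFR3WT) and Hoxa4 (441 on FGFR3Act, against 956 on FGFR3KO and 772 on FGFR3WT) were lower and 0 were higher by 2-fold. Among 24 adhesion genes Ncam1 read 441 on FGFR3Act, against 1118 on FGFR3KO and 919 on FGFR3WT (2.54-fold lower) and Alcam read 245 on FGFR3Act, against 109 on FGFR3KO and 101 on FGFR3WT (at least 2.01-fold higher). Vcam1 was 1.59-fold higher by its brightest probe set (2916 on FGFR3Act, against 1832 on FGFR3KO and 1675 on FGFR3WT), and its other probe sets gave 1.91 and 1.77 on the log2 scale. Of 17 cAMP pathway genes 4 were at least 2-fold higher and 1 was lower. They included the kinase A inhibitor genes Pkib (400.4 on FGFR3Act, against 16.6 on FGFR3KO and 34.2 on FGFR3WT) and Pkia (953 on FGFR3Act, against 291 on FGFR3KO and 1203 on FGFR3WT). Rgs16 and Rgs2 (at least 2.01-fold) were higher and Rgs19 (2.05-fold) was lower among 7 regulators of G-protein signalling. The other probe set of Rgs19 gave -0.79 on the log2 scale, under 2-fold. Of 6 hormone genes, the deiodinase gene Dio2 (287 on FGFR3Act, against 129 on FGFR3KO and 584 on FGFR3WT) and the kinase gene Sgk1 (2041 on FGFR3Act, against 767 on FGFR3KO and 2152 on FGFR3WT) were higher, and Hsd11b1, which makes active glucocorticoid (156 on FGFR3Act, against 410.2 on FGFR3KO and 1162 on FGFR3WT), and the thyroid hormone receptor gene Thra (1041 on FGFR3Act, against 2159.7 on FGFR3KO and 2065 on FGFR3WT) were lower.

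Housekeeping gene lists were read next, beside the 8.33% of all compared genes at least 2-fold higher and the 7.49% at least 2-fold lower. Of 23 cytosolic ribosomal protein genes 22 were lower on FGFR3Act and 7 at least 2-fold, with a median of -0.75. Rps10 read 2308 on FGFR3Act, against 8779.7 on FGFR3KO and 6259 on FGFR3WT (3.80-fold lower) and Rpl10a read 935 on FGFR3Act, against 3531 on FGFR3KO and 2902 on FGFR3WT (3.78-fold), whereas Rps24 differed by 1.22-fold. Ribosomal protein genes have many near-identical pseudogene copies, so their probe sets may not be specific. Respiratory chain genes had a median of -0.46 over 44, with 4 at least 2-fold lower, led by Ndufb8 (206 on FGFR3Act, against 576 on FGFR3KO and 732 on FGFR3WT), and 1 higher, Sdha (441 on FGFR3Act, against 151 on FGFR3KO and 303 on FGFR3WT). The 4 lower members are 9.09% of the list, near the share of all compared genes. Of 26 glycolysis and hypoxia genes 4 were at least 2-fold higher and 0 lower. The furthest was adrenomedullin, Adm, at 2115 on FGFR3Act, against 476 on FGFR3KO and 1678 on FGFR3WT (4.44-fold), with FGFR3WT near FGFR3Act. The oxidoreductase gene Ero1a followed (5901 on FGFR3Act, against 2271 on FGFR3KO and 3748 on FGFR3WT).

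Genes of apoptosis and the p53 response were higher on FGFR3Act by 2-fold or more in 7 of 27 and lower in 0. Over all compared genes these shares were 8.33% and 7.49%, which also stand beside the other counts of this paragraph. Perp read 1928 on FGFR3Act, against 554 on FGFR3KO and 629 on FGFR3WT (3.48-fold), and Plk2, a stress-induced kinase, read 5203 on FGFR3Act, against 1909 on FGFR3KO and 2713 on FGFR3WT (2.73-fold). The p53 target genes Mdm2 (2121 on FGFR3Act, against 1045 on FGFR3KO and 1719.9 on FGFR3WT) and Ccng1 (3981 on FGFR3Act, against 1884 on FGFR3KO and 2181 on FGFR3WT) were among them, but Cdkn1a, the target most often measured, was level. Of 26 endoplasmic reticulum and heat shock genes 4 were at least 2-fold higher, led by the stress sensor gene Atf6 (497 on FGFR3Act, against 140.2 on FGFR3KO and 271 on FGFR3WT), and 1 was lower, Trib3 (443 on FGFR3Act, against 1429 on FGFR3KO and 1002 on FGFR3WT). The chaperone gene Hspa5 read 7495 on FGFR3Act, against 3893 on FGFR3KO and 5666 on FGFR3WT (1.93-fold). Of 30 glutathione, redox and metallothionein genes 4 were at least 2-fold lower, Gpx7 (80.6 on FGFR3Act, against 494 on FGFR3KO and 429.8 on FGFR3WT), the secreted peroxidase gene Gpx3 (388 on FGFR3Act, against 1462 on FGFR3KO and 1948 on FGFR3WT), Gstt1 and Prdx4, and 1 was higher, Txnrd1 (2221 on FGFR3Act, against 1070 on FGFR3KO and 929.8 on FGFR3WT).

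**Figure D5:**
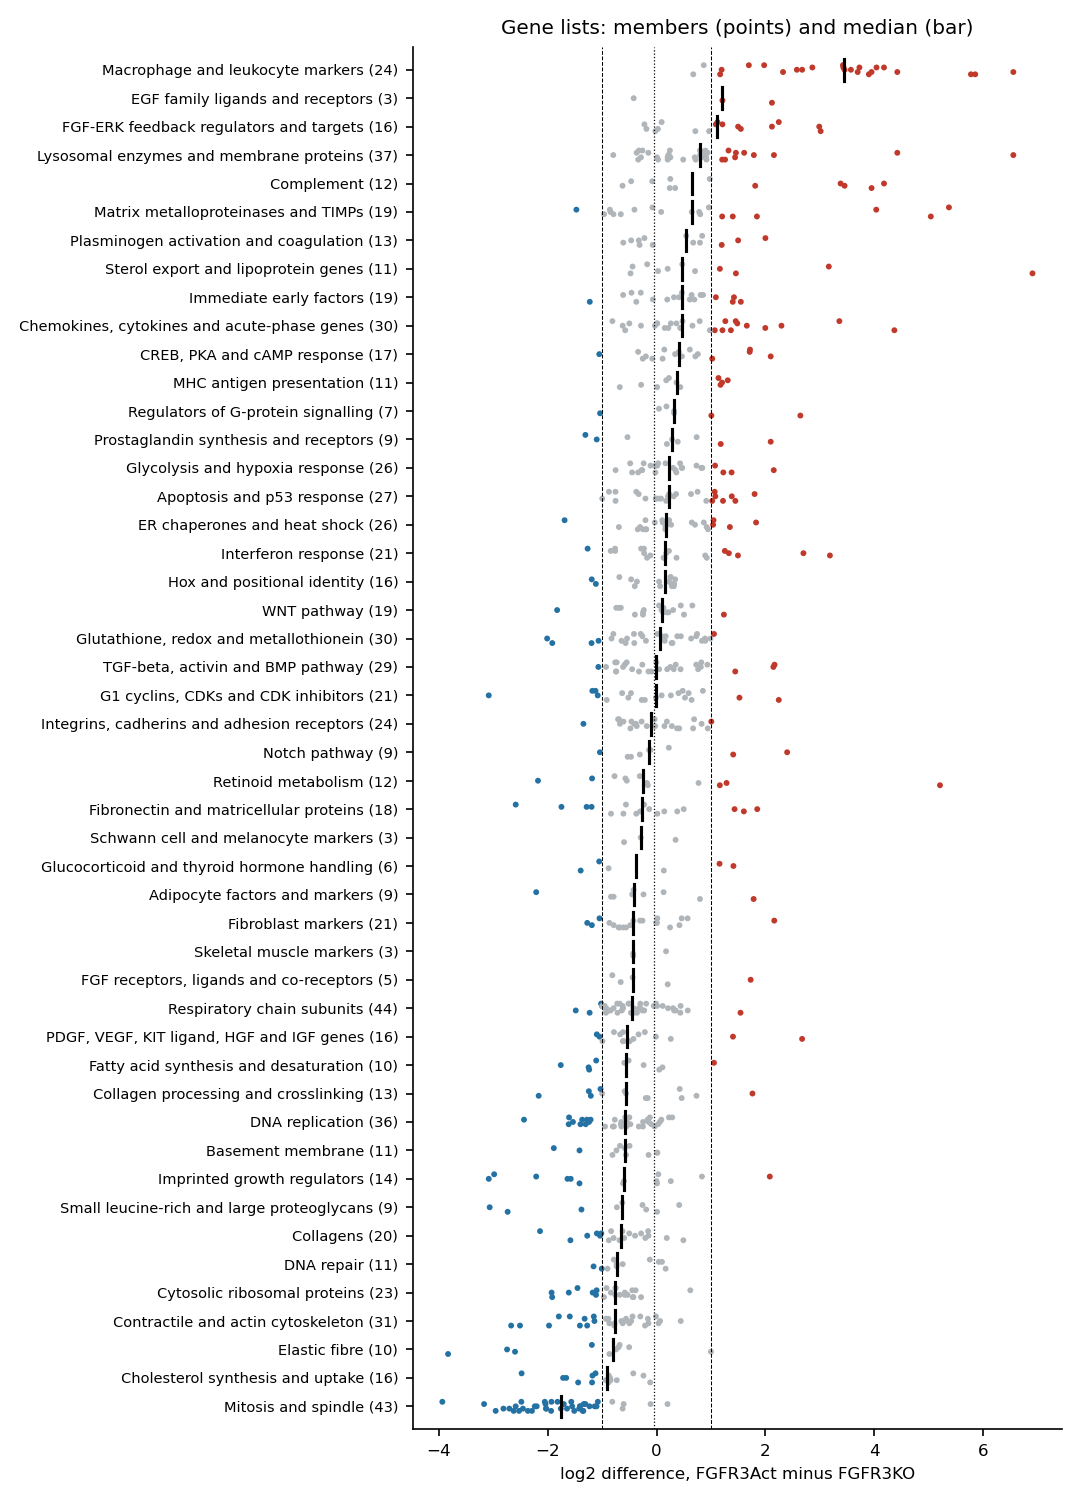
Log2 difference (FGFR3Act minus FGFR3KO) of each compared member (points) and the median (black bar) of each list with at least 3 compared members, whose number is in brackets. Points higher on FGFR3Act by 2-fold or more are red and those at least 2-fold lower are blue, the dotted line is the median of all genes at -0.052, and dashed lines mark 2-fold. Macrophage markers (median 3.44) are at the top and mitosis genes (-1.76) at the bottom.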

How the data were processed

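The deposited table holds 9889 probe sets on 3 Affymetrix arrays, 1 per genotype, from 15 µg of total RNA per the labels' protocols. Its values are linear intensities that the authors made with MAS5, per the submitters' processing notes. The version, the scaling target and any detection call are not given in the labels or notes. Trimmed means (2% off each end) were 612, 604 and 612, so no further scaling was applied. GEO's platform annotation and the RefSeq table of GRCm38.p6 named 9039 probe sets. Of the gene lists, 52 were used, and members, lists and the printed promoters were chosen with earlier results of these data known. Named genes were the 12 furthest apart in each direction with both arrays above the floor and all measured probe sets in 1 direction, the 8 highest bounds in each direction, and 2 to 4 members at either end of each list with the genes that define it. Some members beyond that rule were named after their values were seen. No test was possible with 1 array per group, and the number of arrays limits the precision. Python 3.11.15, numpy 2.4.6, pandas 2.3.3, R 4.3.3 and limma 3.58.1 were used, the last for quantile and cyclic loess alternatives. Alternatives also covered centring, the floor, the filter, the probe set of a gene and leaving out immune genes. The arithmetic was tested on simulated data.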

Additional observations from a re-analysis of the deposited data

Results flagged for a closer look

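Probe sets without a single gene symbol carried signal that the gene comparison does not use. There were 832 of them, 485 of which were above the floor on FGFR3Act or FGFR3KO, and by 2-fold or more 45 were higher and 58 lower on FGFR3Act (21.2%, against 15.8% of named genes). Set against FGFR3WT, 31 stood 2-fold or more above it on FGFR3Act and 6 on FGFR3KO.

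The control probe sets for 18S ribosomal RNA were brighter on FGFR3KO than on the control array FGFR3WT. The ratio of FGFR3KO to FGFR3WT was 2.43 at the 3' end, 1.65 in the middle and 2.44 at the 5' end. The 3' probe set read 971 on FGFR3Act, against 2103 on FGFR3KO and 866 on FGFR3WT, and the 5' probe set read 203, 989 and 406. The part of this in the gene differences was not tested.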

How the results depend on the processing

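No paired analysis was possible because each genotype has 1 array. Of 24 recomputed counts of genes past 2-fold, 21 stayed within 1.5 times the reported count. A floor at the 60th percentile gave 274 higher and 234 lower genes, and a floor at the 20th gave 614 lower. Higher genes made up 52.6% of those past 2-fold, 58.2% after cyclic loess and 55.3% after centring. Without the immune, complement and lysosome lists, a choice added after the data were seen, the counts were 389 and 396.

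Of the recomputed list medians, 547 were within 1.5-fold of the reported value, a limit set after the data were seen. With the 60th percentile floor, FGF receptors and ligands were at 0.20, mitosis at -1.14 and macrophage markers at 2.10. With the 20th, macrophage markers were at 4.59, cytokines at 1.06 and the EGF family at 0.39. With both arrays above the floor, FGF receptors and ligands were at 0.20, macrophage markers at 1.69 and complement turned to -0.079. With log2 of the signal plus an offset of 32 and no floor, macrophage markers were at 4.08. With no filter, DNA repair turned to 0.0086, since genes at the floor on both arrays then enter the median. There, proteoglycans and the EGF family were also at 0.0086, metalloproteinases at 0.047 and imprinted genes at 0.0040. Imprinted genes were at -1.42 without probe sets of suffixed kinds. In 17 of 48 lists the median changed sign in at least 1 of 12 settings, in 2 of them (G1 regulators, TGF-beta) through scaling. These are shown as turned above only where the reported median lay 1.5-fold or more from that of all genes, a rule also set after the data were seen.

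Among members of the lists, Igf1 turned to 0.12 without suffixed probe sets, where its other probe set was read. With the 60th percentile floor Plau turned to -0.013, Rsad2 to -0.038 and Sesn1 to -0.041, since FGFR3KO is then raised to a floor just above their FGFR3Act signals. With 1 array per genotype, signal over background limits dim genes to bounds.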
